A study of Mus musculus with 144 samples.

Results

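The transcriptome of primary mouse hepatocytes was compared between 10 nM of the dioxin TCDD and its solvent dimethyl sulfoxide (DMSO, the vehicle) after 96 h in culture, in the libraries labelled wild-type (WT). The libraries were chosen by their labels, with earlier results of these data known. This comparison holds 8 RNA-seq libraries, 4 with TCDD and 4 with vehicle, of a series of 36 groups with 4 libraries each. The hepatocytes came from male mice labelled C57BL/6NCrl with a stated age of 28 days and were kept on collagen in medium with dexamethasone and insulin, which both groups shared. The rest of the series holds 8 further time points (2, 4, 8, 12, 24, 48, 72 and 120 h) and a strain labelled Pkm-delta-DRE with the genotype DRE-null, in which a dioxin response element in an intron of *Pkm* was removed. Libraries are called vehicle libraries 1 to 4 and TCDD libraries 1 to 4, in the order in which they are listed. The labels do not say whether the 4 libraries of a group came from separate animals or cultures, so the p-values measure the spread between these libraries, which may be technical.

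TCDD is a persistent ligand of the aryl hydrocarbon receptor (AHR), a transcription factor that waits in the cytosol in a complex with HSP90. On binding a ligand it moves to the nucleus, pairs with ARNT and binds dioxin response elements, which share the core GCGTG. In the liver its best known targets are the cytochrome P450 enzymes CYP1A1, CYP1A2 and CYP1B1, which oxidise foreign aromatic compounds, and 2 brakes on the pathway, the AHR repressor (*Ahrr*) and the ADP-ribosyltransferase TIPARP.

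The promoters of 4 of these targets and of *Reln*, which was among the genes with the largest rise, are shown because each holds the core in the 300 bases around the start of the gene. They run 5′ to 3′ from 250 bases before to 50 bases after the start, on the strand of the gene, as RefSeq gives them for GRCm38.p6, and capitals mark the core GCGTG or its reverse complement CACGC. The order is *Cyp1a1* at chr9:57697363-57697662 (plus strand), *Cyp1b1* at chr17:79715012-79715311 (minus), *Ahrr* at chr13:74292282-74292581 (minus), *Tiparp* at chr3:65528197-65528496 (plus) and *Reln* at chr5:22344656-22344955 (minus).
Cyp1a1: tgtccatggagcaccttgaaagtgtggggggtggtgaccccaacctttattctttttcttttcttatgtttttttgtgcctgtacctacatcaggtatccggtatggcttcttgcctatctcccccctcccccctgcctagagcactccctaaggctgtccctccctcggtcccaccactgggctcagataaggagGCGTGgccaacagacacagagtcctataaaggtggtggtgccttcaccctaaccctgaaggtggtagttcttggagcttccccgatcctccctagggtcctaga
Cyp1b1: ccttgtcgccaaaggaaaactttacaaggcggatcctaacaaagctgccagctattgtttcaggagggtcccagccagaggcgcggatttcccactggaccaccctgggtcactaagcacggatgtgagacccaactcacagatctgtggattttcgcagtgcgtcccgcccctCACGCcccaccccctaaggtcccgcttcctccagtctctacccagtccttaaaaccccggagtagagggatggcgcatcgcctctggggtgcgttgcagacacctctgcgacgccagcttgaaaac
Ahrr: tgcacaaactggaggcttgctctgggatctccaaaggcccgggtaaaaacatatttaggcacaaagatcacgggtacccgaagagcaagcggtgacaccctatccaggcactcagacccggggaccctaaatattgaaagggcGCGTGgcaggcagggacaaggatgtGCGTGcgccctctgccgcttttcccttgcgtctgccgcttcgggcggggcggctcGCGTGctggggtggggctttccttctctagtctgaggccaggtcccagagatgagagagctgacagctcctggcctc
Tiparp: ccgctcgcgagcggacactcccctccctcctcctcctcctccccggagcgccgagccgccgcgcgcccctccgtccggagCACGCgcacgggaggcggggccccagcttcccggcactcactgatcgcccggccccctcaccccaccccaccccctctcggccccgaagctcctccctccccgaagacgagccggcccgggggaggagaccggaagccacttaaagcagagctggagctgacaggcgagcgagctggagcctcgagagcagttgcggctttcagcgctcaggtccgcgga
Reln: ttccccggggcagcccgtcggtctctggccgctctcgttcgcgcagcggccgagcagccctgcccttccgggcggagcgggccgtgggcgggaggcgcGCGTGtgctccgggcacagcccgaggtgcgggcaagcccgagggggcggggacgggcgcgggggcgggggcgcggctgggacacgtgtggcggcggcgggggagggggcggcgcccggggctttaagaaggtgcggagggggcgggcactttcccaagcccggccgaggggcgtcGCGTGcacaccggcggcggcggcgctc
Counted from the start, the core stood at -54 to -50 in *Cyp1a1*, at -76 to -72 in *Cyp1b1* and at -170 to -166 in *Tiparp*. *Ahrr* held 3 copies, beginning at -107, -82 and -27, and *Reln* held 2, beginning at -152 and 24. The core was searched on both strands and is common: 32.4% of all 32851 promoters of the table held it, as did 49.1% of the 13143 promoters of tested genes, 46.5% of those of genes that rose, 52.8% of those of genes that fell and 50% (8 of 16) of those of the AHR target list. The longer form TNGCGTG, which contains the core, stood in 5.07% of all promoters, 7.76% of those of tested genes, 8.63% of those of genes that rose, 7.45% of those of genes that fell, 6.25% (1 of 16) of those of the AHR targets, and 3 of the 9 promoters (33.3%) found for the 12 genes with the largest rise. A match in this window is a description of the letters and not a bound site.

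Before the results, 2 libraries need a word. Vehicle library 3 held far more RNA of several AHR targets than the other vehicle libraries, and in TCDD library 1 63.3% of strand-assigned read pairs fell on 1 strand against 50.4% to 51.5% in the other 7 libraries, with 11.4% of pairs unmapped against 3.46% to 6.61%. The vehicle libraries also formed pairs: on log2(CPM + 1), libraries 1 and 2 correlated at 0.9912 and libraries 3 and 4 at 0.9929, but the 2 pairs with each other at 0.9819 to 0.9846. TCDD libraries 2 to 4 correlated at 0.9903 to 0.9932 with each other and at 0.9839 to 0.9853 with TCDD library 1, and a vehicle and a TCDD library at 0.9512 to 0.9826. Counts on genes were 16239892 to 19636806 per vehicle library and 15384088 to 17151374 per TCDD library. The share of these counts on mitochondrial genes was 2.10% ± 0.162 (SD, n = 4) with vehicle and 2.89% ± 0.311 with TCDD (exact two-sided permutation test, p = 0.0286, the smallest that 70 splits allow, and 0.229 after adjustment over the 8 library measures tested). The share of uniquely mapped pairs on no annotated gene was 7.99% ± 1.45 and 10.3% ± 1.18 (exact permutation p = 0.0571).

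*Pkm*, the gene whose element the mutant strain lacks, encodes the M1 and M2 forms of pyruvate kinase, the last enzyme of glycolysis. It stood at 283, 373, 307 and 322 CPM (read counts scaled to library size) in vehicle libraries 1 to 4 and at 135.8, 211, 221 and 177 CPM in the TCDD libraries, and the groups did not overlap. Its log2 fold change was -0.73 ± 0.14 (SE, adjusted p = 0.00376), a fall that was not called with a GC trend removed (-0.48, described below) or in 1 fit of all libraries of the label (-0.72, adjusted p = 0.506). In the libraries labelled DRE-null at 96 h it was 807, 346, 349 and 91.9 CPM with vehicle and 640, 421, 477 and 493 CPM with TCDD, a log2 fold change of 0.34 ± 0.51 (adjusted p = 0.851), and the responses of the labels differed by 1.05 ± 0.55 (DRE-null minus WT, adjusted p = 0.438). The deleted element is not in the mature transcript, so these counts do not check the genotype label of any library.

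TCDD changed 2085 of the 13793 genes tested (15.1%) by at least 1.5-fold with an adjusted p under 0.05 in edgeR's quasi-likelihood test, 1395 of them upward (10.1%) and 690 downward (5.00%). Most changes were small. Between 1.5-fold and 2-fold lay 938 of the rises and 508 of the falls, while 32 genes rose and 0 fell by at least 3 on the log2 scale. The 4 vehicle values and the 4 TCDD values did not overlap for 4668 genes (33.8%), among them 1165 of the 1395 genes that rose and 629 of the 690 that fell. Leaving out each library in turn gave 1663 to 2088 changed genes, and 1127 genes changed in the same direction in all 8 of these fits. In 1 fit of the 72 libraries with the WT label, which share 1 estimate of the spread, 72 genes rose and 35 fell. The biological coefficient of variation of the 8 libraries at 96 h was 0.178, against 0.256 to 0.537 in the 17 other pairs of label and time.

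The direction of change moved with the GC content of the genes. With tested genes in 5 bins of equal size, 28.1% of the genes in the lowest GC bin rose and 0.618% fell, with a median log2 fold change of 0.48, and in the highest bin 2.18% rose and 9.67% fell, with a median of -0.26. Each library showed the trend on its own: the median deviation of the lowest bin from the mean of the 8 libraries, on log2(CPM + 1), was -0.24 to -0.06 in the vehicle libraries and 0.11 to 0.30 in the TCDD libraries. With the trend removed, 1170 genes changed, 606 upward (4.39%) and 564 downward (4.09%), and 493 of the rises and 337 of the falls were still called. Rises made up 66.9% of the changes as deposited, 51.8% with the trend removed and 51% with no fold threshold (4525 genes, 2306 upward). They made up 51% with the unassigned share as a covariate (1344 genes, 685 upward). The unassigned share, here and below, is the share of uniquely mapped pairs on no annotated gene. The part of RNA quality or library preparation in these counts was not tested, so the lists below are given with their counts after removal of the trend.

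**Figure D1:**
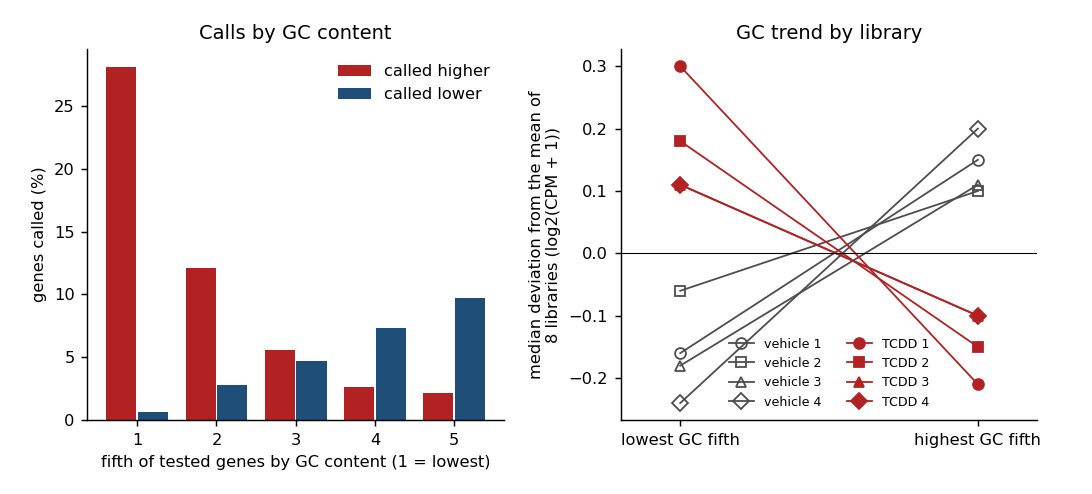
Left, the share of tested genes called higher (red) or lower (blue) with TCDD in each of 5 bins of GC content, from 28.1% higher in the lowest bin to 9.67% lower in the highest. Right, each library's median deviation from the mean of the 8 libraries in the lowest and the highest bin, on log2(CPM + 1), where the 4 vehicle libraries (grey) and the 4 TCDD libraries (red) do not overlap in either bin.

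Most of the AHR targets tested rose. Of the 18 genes of the list 17 passed the filter on low counts, 11 rose and 0 fell, where 10.1% of all genes rose and 5.00% fell, and the median log2 fold change was 1.84 beside 0.015 over all genes tested. With the GC trend removed the same 11 of 17 rose, with a median of 1.75.

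*Cyp1a1* and *Cyp1a2* had the highest CPM with TCDD among the targets. *Cyp1a1* stood at 42.6, 17.9, 1717 and 114.1 CPM in vehicle libraries 1 to 4 and at 4007, 4310, 4208 and 4578 CPM in TCDD libraries 1 to 4. The groups did not overlap, but vehicle library 3 lay far above the other 3 vehicle libraries. The log2 fold change was 3.25 ± 1.48 (adjusted p = 0.139), which did not pass, and without vehicle library 3 it was 6.27 (adjusted p = 0.000556), which did. *Cyp1a2*, the CYP1 enzyme of the unexposed adult liver, showed the same arrangement: 141.1, 61.8, 1252 and 132.8 CPM with vehicle and 3699, 3245, 2974 and 3853 CPM with TCDD. Its log2 fold change was 3.19 ± 1.02 (adjusted p = 0.0531) with all libraries and 5.00 (adjusted p = 1.33e-05) without vehicle library 3. *Cyp1b1*, which in many tissues oxidises estradiol as well as aromatic hydrocarbons, had 0, 1, 391 and 3 counts in the vehicle libraries and 20421, 16226, 14109 and 11953 counts in the TCDD libraries. In CPM this was 0, 0.049, 16.3 and 0.13 against 906, 736, 684 and 598, a log2 fold change of 7.49 ± 1.49 (adjusted p = 0.0118). Without vehicle library 3 the log2 fold change was 13.43 (adjusted p = 2.11e-08), resting on vehicle counts of 0, 1 and 3. The call held in each of the 8 fits with 1 library left out but not with the unassigned share as a covariate, where the log2 fold change was 8.46.

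The 2 brakes on the receptor had little RNA with vehicle, vehicle library 3 included. *Ahrr* had 4, 0, 0 and 0 counts in the vehicle libraries and 392, 342, 386 and 271 counts in the TCDD libraries, so vehicle library 3 was not raised for this gene. The fitted log2 fold change of 8.36 ± 0.47 (adjusted p = 2.99e-06) depends on the prior count that stands in for the zeros. *Tiparp* stood at 5.91, 7.35, 4.26 and 5.09 CPM with vehicle and at 105.6, 87.1, 75.9 and 76.1 CPM with TCDD, with the smallest adjusted p of all genes (log2 fold change 3.99 ± 0.19, adjusted p = 2.76e-06). Vehicle library 3 was the lowest of the vehicle libraries for *Tiparp*.

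**Figure D2:**
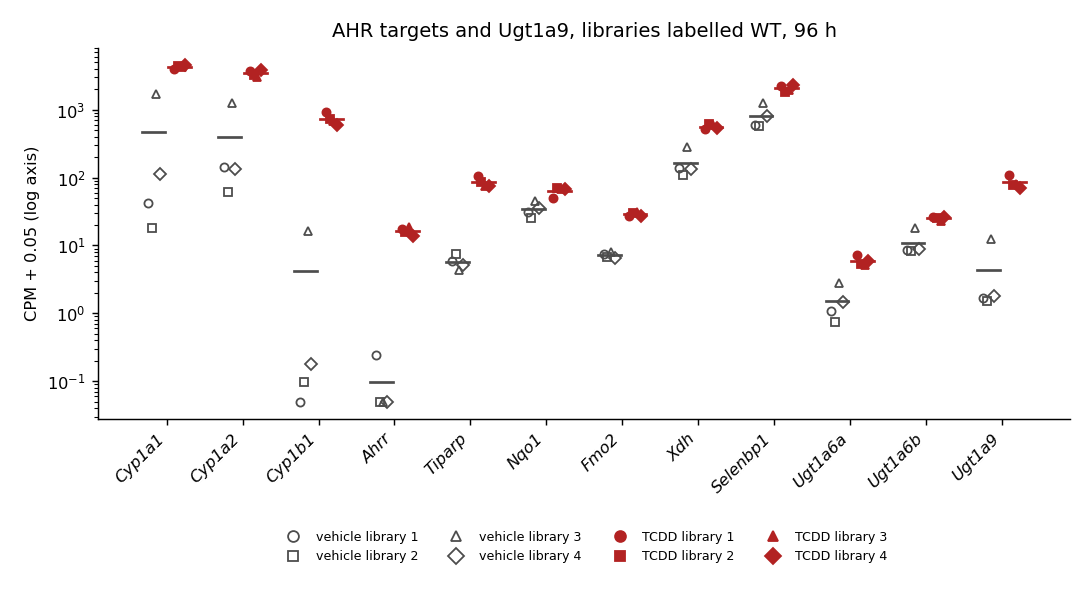
CPM + 0.05 on a log axis in each of the 8 libraries for 11 AHR targets and *Ugt1a9*, with open grey symbols for vehicle, filled red symbols for TCDD and bars at the group means. Vehicle library 3 (open triangle) sits at 1717 CPM for *Cyp1a1* and at 12.6 CPM for *Ugt1a9*, above the other vehicle libraries, and at the bottom of the vehicle group for *Tiparp*.

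*Fmo2*, a flavin-containing monooxygenase, which oxidises nitrogen and sulfur in drugs, moved from between 6.48 and 7.97 CPM to between 26.7 and 30.5 CPM (log2 fold change 2.05 ± 0.12, adjusted p = 2.99e-06), with narrow groups that did not overlap. The quinone reductase *Nqo1* stood at 31.4, 25.7, 45 and 35.3 CPM with vehicle and at 49.1, 69.9, 68 and 68.2 CPM with TCDD, a rise of 0.95 ± 0.16 (adjusted p = 0.00166) in which TCDD library 1 came close to the highest vehicle library.

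Xanthine dehydrogenase (*Xdh*), which makes uric acid, rose by 1.84 ± 0.26 and the selenium-binding protein *Selenbp1* by 1.43 ± 0.22 on the log2 scale. Vehicle library 3 was the highest vehicle library for both, at 278 CPM of *Xdh* and 1243 CPM of *Selenbp1*. Among the UDP-glucuronosyltransferases, which couple glucuronic acid to hydrophobic compounds for excretion, *Ugt1a6a* rose by 2.06 ± 0.34, *Ugt1a6b* by 1.26 ± 0.23 and *Ugt1a9* by 4.33 ± 0.71. *Ugt1a9* stood at 1.62, 1.47, 12.6 and 1.74 CPM with vehicle and at 110.4, 77.9, 81 and 70.5 CPM with TCDD. The *Ugt1a* genes share their last exons, so the division of read pairs between them is uncertain.

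The remaining targets gave less. *Htatip2* passed at 0.59 ± 0.15 with overlapping groups, and lost the call without vehicle library 1 (0.53) or 2 (0.50) or TCDD library 3 (0.57) or 4 (0.51). *Ugdh*, which makes the UDP-glucuronic acid that UGT enzymes use, had a log2 fold change of 0.55 ± 0.17 (adjusted p = 0.0305), below 1.5-fold, and passed without vehicle library 3 (0.71) or without TCDD library 1 (0.62). *Cyp2s1*, *Lekr1* and *Gsta1* did not pass, with log2 fold changes of 0.20, 0.83 and -0.29 and adjusted p-values of 0.823, 0.177 and 0.306. *Aldh3a1* was not tested: it had 1 count in the 8 libraries, in TCDD library 4.

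Of the 12 measured parts of the receptor machinery 1 rose and 0 fell, a share of rises near the 10.1% of all genes (5.00% fell). The 1 was *Hsp90aa1*, a chaperone of the receptor (0.71 ± 0.12, adjusted p = 0.00195). It was not called after removal of the GC trend (0.42) or with the unassigned share as a covariate (0.57). Without the GC trend *Arnt2*, a relative of *Arnt*, was the 1 called, at 0.67, where 4.39% of all genes rose. *Ahr* itself averaged 38 CPM with vehicle and 31.9 CPM with TCDD (log2 fold change -0.20 ± 0.18, adjusted p = 0.413), and *Arnt* had a log2 fold change of 0.38 ± 0.09 (adjusted p = 0.00734), below 1.5-fold.

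Beside *Ahrr*, *Cyp1b1* and *Ugt1a9*, the genes with the largest rise were spread over many functions. *Nefm*, a neurofilament subunit, was read at 0.148, 0, 0.626 and 0.522 CPM with vehicle and at 4.35, 8.30, 9.50 and 7.05 CPM with TCDD (log2 fold change 4.48 ± 0.53, adjusted p = 0.000447). The carboxylesterase *Ces1f* stood at 0.640, 0.147, 2.17 and 0.609 CPM with vehicle and at 12.0, 14.9, 17.1 and 21.7 CPM with TCDD (4.22 ± 0.50). *Adh7*, an alcohol dehydrogenase that also oxidises retinol, stood at 1.43, 0.686, 4.97 and 2.00 CPM with vehicle and at 19, 52.8, 49.9 and 35.7 CPM with TCDD (4.14 ± 0.54). Genes were picked for this list only if their groups did not overlap. Vehicle library 3 was the highest of the vehicle libraries for all 3 genes.

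*Reln*, a secreted glycoprotein best known from brain development, stood at 2.61, 1.76, 12.7 and 4.52 CPM with vehicle and at 37.8, 104.7, 94.4 and 89.7 CPM with TCDD (log2 fold change 3.96 ± 0.62, adjusted p = 0.00331). In the liver *Reln* is also a marker of stellate cells. Of the 8 measured markers of that list *Reln* rose, *Ecm1* fell (-1.11 ± 0.13) and the other 6 did not pass, as without the GC trend, with *Des* at -0.006, *Pdgfrb* at 0.28 and *Lrat* at 1.34 (adjusted p = 0.0526). Over all genes 10.1% rose and 5.00% fell (4.39% and 4.09% without the GC trend). With the unassigned share as a covariate 3 of the 8 rose and 1 fell (4.97% and 4.78% of all genes). The counts were the same without vehicle library 3 and TCDD library 1 (7.46% and 5.75% of all genes).

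*Fabp1*, the fatty acid carrier of the hepatocyte cytosol, was low in all libraries, at 0.197, 0.490, 1.09 and 0.565 CPM with vehicle and at 3.77, 5.44, 8.33 and 13.7 CPM with TCDD (log2 fold change 3.76 ± 0.50). *Col9a2* (3.84 ± 0.60), a collagen chain, and *Fndc9* (3.74 ± 0.54) were also among the 12 and had at most 2.86 CPM in any library. Hepatic lipase (*Lipc*), which hydrolyses lipids of plasma lipoproteins, stood at 1.13, 1.13, 2.34 and 1.22 CPM with vehicle and at 17.9, 16.5, 18.1 and 16.9 CPM with TCDD. Its log2 fold change of 3.62 ± 0.22 (adjusted p = 5.64e-06) was among the 10 with the smallest p, as were those of *Tnfaip2* (2.22 ± 0.12), the growth factor *Ereg* (3.45 ± 0.25), the receptors *Flt1* (2.23 ± 0.18) and *Notch1* (1.11 ± 0.09), and the acyl-CoA thioesterase *Acot1* (1.49 ± 0.12). *Notch1* moved from between 97.6 and 119.8 CPM to between 204 and 232 CPM, so its small fold change rested on narrow groups.

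The falls were smaller than the rises. *Igf1*, the growth hormone-dependent growth factor that the liver secretes, stood at 46.9, 44.6, 26.4 and 35.6 CPM with vehicle and at 12.1, 9.71, 9.55 and 9.35 CPM with TCDD (log2 fold change -1.86 ± 0.19, adjusted p = 0.0002). Its binding proteins *Igfbp2* (-1.58 ± 0.28) and *Igfbp3* (-1.03 ± 0.22) fell as well, and the growth hormone receptor *Ghr* rose by 0.61 ± 0.12 in this list of 11 measured genes, of which 1 rose and 3 fell. Without the GC trend *Ghr* was not called and the 3 falls were, where 4.09% of all genes fell (5.00% with the trend).

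*Hamp*, the iron hormone hepcidin, stood at 2.17, 5.83, 4.63 and 5.39 CPM with vehicle and at 0.488, 1.45, 1.45 and 1.30 CPM with TCDD (-1.88 ± 0.38, adjusted p = 0.0041). *Tff3*, a mucosal trefoil peptide, stood at 14.6, 18.6, 30.6 and 41.4 CPM with vehicle and at 1.6, 5.26, 6.11 and 9.15 CPM with TCDD (-2.19 ± 0.47, adjusted p = 0.0085). Neither was called with the unassigned share as a covariate, where they stood at -1.55 and -1.74. The cytoskeletal protein *Ablim3* stood at 21.9, 13.7, 22.1 and 36.4 CPM with vehicle and at 4.26, 6.67, 5.38 and 2.95 CPM with TCDD (-2.22 ± 0.30). The stress-activated kinase *Nuak2*, at 34.6 to 83.8 CPM with vehicle and 12.9 to 25.7 CPM with TCDD, fell by 1.78 ± 0.31. The transcriptional cofactors *Lmcd1* (-2.31 ± 0.36) and *Eya2* (-2.07 ± 0.32) and the genes *R3hdml* (-2.25 ± 0.36), *Wfdc21* (-1.91 ± 0.27), *Ctla2a* (-1.82 ± 0.32), *Fam167b* (-1.79 ± 0.37) and *Hhat* (-1.78) made up the rest of the 12. *Hhat* was no longer called without vehicle library 1 (-1.55) or TCDD library 2 (-1.79).

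**Figure D3:**
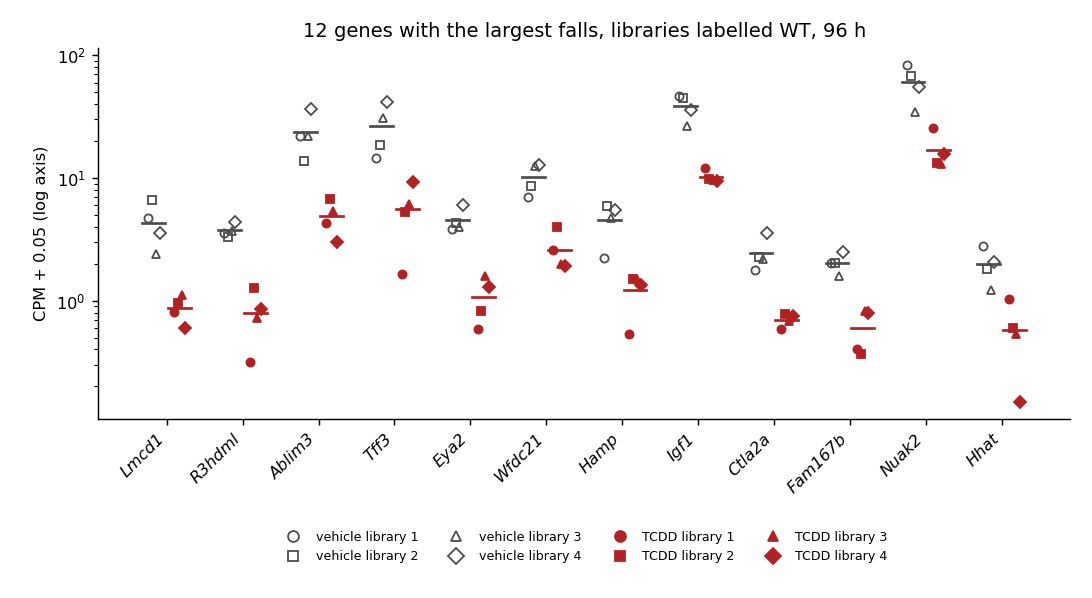
CPM + 0.05 on a log axis in each of the 8 libraries for the 12 genes with the largest falls, with open grey symbols for vehicle, filled red symbols for TCDD and bars at the group means. The 12 were picked among genes whose groups did not overlap, and *Igf1* moves from 26.4 to 46.9 CPM down to 9.35 to 12.1 CPM.

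Of 26 measured cell cycle genes 12 fell and 0 rose, where 5.00% of all genes fell, with a median log2 fold change of -0.52, and without the GC trend 11 fell with a median of -0.54. Cyclin D1 (*Ccnd1*), which drives entry into the cycle, stood at 84, 96.1, 85.8 and 95.2 CPM with vehicle and at 27.5, 32.8, 36.3 and 33.5 CPM with TCDD (-1.42 ± 0.10, adjusted p = 1.62e-05). The mitotic kinase *Plk1* (-1.30 ± 0.18), the mitotic activator *Cdc20* (-1.12 ± 0.21) and the replication helicase subunits *Mcm5* (-1.04 ± 0.20) and *Mcm2* (-0.86 ± 0.12) fell with it. The summed level of the list was 430 to 572 CPM in the vehicle libraries and 289 to 302 CPM in the TCDD libraries.

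Genes of the cytoskeleton and of the mesenchymal state of cultured hepatocytes fell in 10 of 24 cases and rose in 1. Over all genes 5.00% fell and 10.1% rose, and 4.09% and 4.39% without the GC trend. The intermediate filament vimentin (*Vim*) moved from between 1862 and 2089 CPM to between 924 and 1185 CPM (-0.86 ± 0.10), *Anxa2* fell by 0.77 ± 0.12 and *Lgals1* by 0.80 ± 0.14. The keratin *Krt19* stood at 99.8, 145.1, 138.3 and 155 CPM with vehicle and at 30.6, 63.2, 64.1 and 48.5 CPM with TCDD (-1.33 ± 0.22). *Krt23*, which was low at 2.11 and 4.36 CPM on average, was the member that rose (1.11 ± 0.23). Without the GC trend 6 members fell and 1 rose, and *Krt8* (-0.35) and *Krt18* (-0.41) were no longer called.

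Cytosolic ribosomal proteins fell in 38 of 80 cases and rose in 0, with a median of -0.59, where 5.00% of all genes fell. Without the GC trend they fell in 31 cases with a median of -0.53, where 4.09% of all genes fell. The count of 38 became 20 without TCDD library 1 and at most 51 with another library left out, and 2 in the fit of all 72 libraries. *Rpl35* (-0.99 ± 0.17) and *Rps16* (-0.92 ± 0.12) had some of the largest falls. Many of these genes have processed pseudogenes of nearly the same sequence, so their counts are uncertain. Mitochondrial ribosomal proteins fell in 2 of 74 cases, and in 10 without the GC trend.

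Carbohydrate genes moved in both directions, where 10.1% of all genes rose and 5.00% fell (4.39% and 4.09% without the GC trend). In glycolysis 5 of 22 measured genes fell and 0 rose, with a median of -0.39: *Aldoa* (-0.87 ± 0.09), *Hk1* (-0.81 ± 0.13), *Eno1* (-0.73 ± 0.09), *Ldhb* (-0.73 ± 0.19) and *Pkm*. Without the GC trend *Aldoa* alone was called in this list, *Pkm* stood at -0.48 and the median was -0.22. *Ldha*, which makes lactate, moved from between 454 and 503 CPM to between 297 and 356 CPM without overlap, at -0.44 ± 0.08 (adjusted p = 0.00228), below 1.5-fold. In gluconeogenesis and glycogen metabolism *Fbp1*, a committed enzyme of glucose synthesis, rose from between 14.6 and 25.3 CPM to between 58.8 and 88.3 CPM (1.93 ± 0.17) and *Pck2*, the mitochondrial carboxykinase, fell by 0.97 ± 0.10. *Ugp2* rose by 0.69 ± 0.13, but not without the GC trend (0.12).

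The synthesis of serine and of one-carbon units fell in 7 of 16 measured genes and rose in 0, both with and without the GC trend (medians -0.42 without it and -0.40 with it). The share of all genes that fell was 5.00% with the trend and 4.09% without it. *Phgdh*, the first enzyme of serine synthesis, moved from between 84.8 and 104.9 CPM to between 34.8 and 48.2 CPM (-1.09 ± 0.11, adjusted p = 0.000187). *Shmt1* (-0.90 ± 0.16), *Mthfd1l* (-0.78 ± 0.14), *Mthfd2* (-0.76 ± 0.12), *Psph* (-0.75 ± 0.11) and *Psat1* (-0.64 ± 0.08) fell with it in every fit that left out 1 library. With the unassigned share as a covariate 4 of the 16 fell.

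Changes in lipid genes were mostly rises outside cholesterol synthesis, in shares that were partly near those of all genes. Over all genes 10.1% rose and 5.00% fell (4.39% and 4.09% without the GC trend). Of 21 measured genes of fatty acid oxidation and of the receptor PPAR alpha, 6 rose and 0 fell, with a median of 0.35, and 4 rose without the GC trend: *Fabp1*, the peroxisomal thiolase *Acaa1b* (2.01 ± 0.30) and the thioesterases *Acot1* and *Acot2* (0.92 ± 0.11). *Pdk4* (0.93 ± 0.27) and *Ehhadh* (0.72 ± 0.20) had overlapping groups, and the mitochondrial carnitine transferase *Cpt1a* stood at 0.14 ± 0.07 (adjusted p = 0.164). For lipid uptake and droplets 4 of 15 rose and 0 fell, and 6 rose without the GC trend. The fatty acid transporter *Cd36* stood at 259, 148.2, 203 and 201 CPM with vehicle and at 779, 538, 485 and 510 CPM with TCDD (1.57 ± 0.19), the lipoprotein receptor *Vldlr* rose by 1.49 ± 0.15 and the monoglyceride lipase *Mgll* by 1.81 ± 0.16. The droplet coat protein *Plin2*, at 1387 and 1125 CPM on average, did not pass (-0.25 ± 0.10, adjusted p = 0.0766). In lipogenesis 3 of 18 rose and 1 fell, shares near those of all genes. Without the GC trend 3 rose and 0 fell, where 4.39% of all genes rose. *Fasn* fell by 0.61 ± 0.09, but not without the GC trend (-0.36) or vehicle library 1 (-0.54), and the desaturase *Scd1* had 1.79 ± 0.45, a call lost without vehicle library 4 (1.76) or TCDD library 1 (1.86). In cholesterol synthesis 2 of 20 fell and 0 rose, *Mvd* (-0.84 ± 0.28) and *Dhcr7* (-0.60 ± 0.14), of which neither was called without the GC trend (-0.59 and -0.45) and which with 1 library left out were called in 2 and 5 of 8 fits.

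Changes in oxidative defence were few and mixed, where 10.1% of all genes rose and 5.00% fell (4.39% and 4.09% without the GC trend). Of 22 genes of the NRF2 and antioxidant list 4 rose and 1 fell, with a median of -0.07, and 4 rose and 2 fell without the GC trend. The regulator *Nfe2l2* moved from between 306 and 354 CPM to between 514 and 595 CPM (0.81 ± 0.08), the extracellular superoxide dismutase *Sod3* rose by 2.16 ± 0.33, *Pmm1* by 1.03 ± 0.20 and the exporter *Abcc4* by 0.75 ± 0.12, while heme oxygenase *Hmox1* fell from between 201 and 260 CPM to between 99.3 and 127.9 CPM (-1.02 ± 0.11). None of the 20 measured glutathione S-transferases passed in edgeR's test, with a median of -0.27 and 6 below an adjusted p of 0.05 with changes under 1.5-fold, and without the GC trend 1 rose and 1 fell. In heme and iron metabolism *Cpox*, an enzyme of heme synthesis, rose by 1.64 ± 0.15, and *Hamp*, *Hmox1*, *Alad* (-0.77 ± 0.13), *Ftl1* (-0.73 ± 0.10) and *Blvrb* fell. Without the GC trend 2 of the 18 rose and 2 fell, and *Alad* (-0.53) and *Ftl1* (-0.48) were not called.

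For the other lists, 10.1% of all genes rose and 5.00% fell (4.39% and 4.09% without the GC trend). The clock repressor *Per2* rose from between 7.99 and 13 CPM to between 28.5 and 32.2 CPM (1.61 ± 0.14) among 3 of 17 clock genes that rose. *Per2* alone of these was called without the GC trend (*Clock* 0.40, *Rora* 0.29). *Cyp8b1*, which sets the ratio of bile acids, rose by 3.03 ± 0.58 at 1.90 CPM or less, among 3 of 18 bile acid genes, the same count as without the GC trend. In the inflammation list *Nfkbiz* (1.21 ± 0.18) and *Ptgs2* (1.69 ± 0.40) rose and *Vcam1* (-0.99 ± 0.17) and *Relb* (-0.70 ± 0.16) fell among 17 (2 and 3 without the GC trend), and in the interferon list *Oas1a* (-1.10 ± 0.21) and *Irf7* (-0.81 ± 0.18) fell among 20, both with and without the trend. The mitochondrial genome's 11 measured transcripts gave 0 calls and a median of 0.36, which turned to -0.36 without the GC trend. The median of the 14 UGT and sulfotransferase genes likewise went from 0.46 to -0.08.

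**Figure D4:**
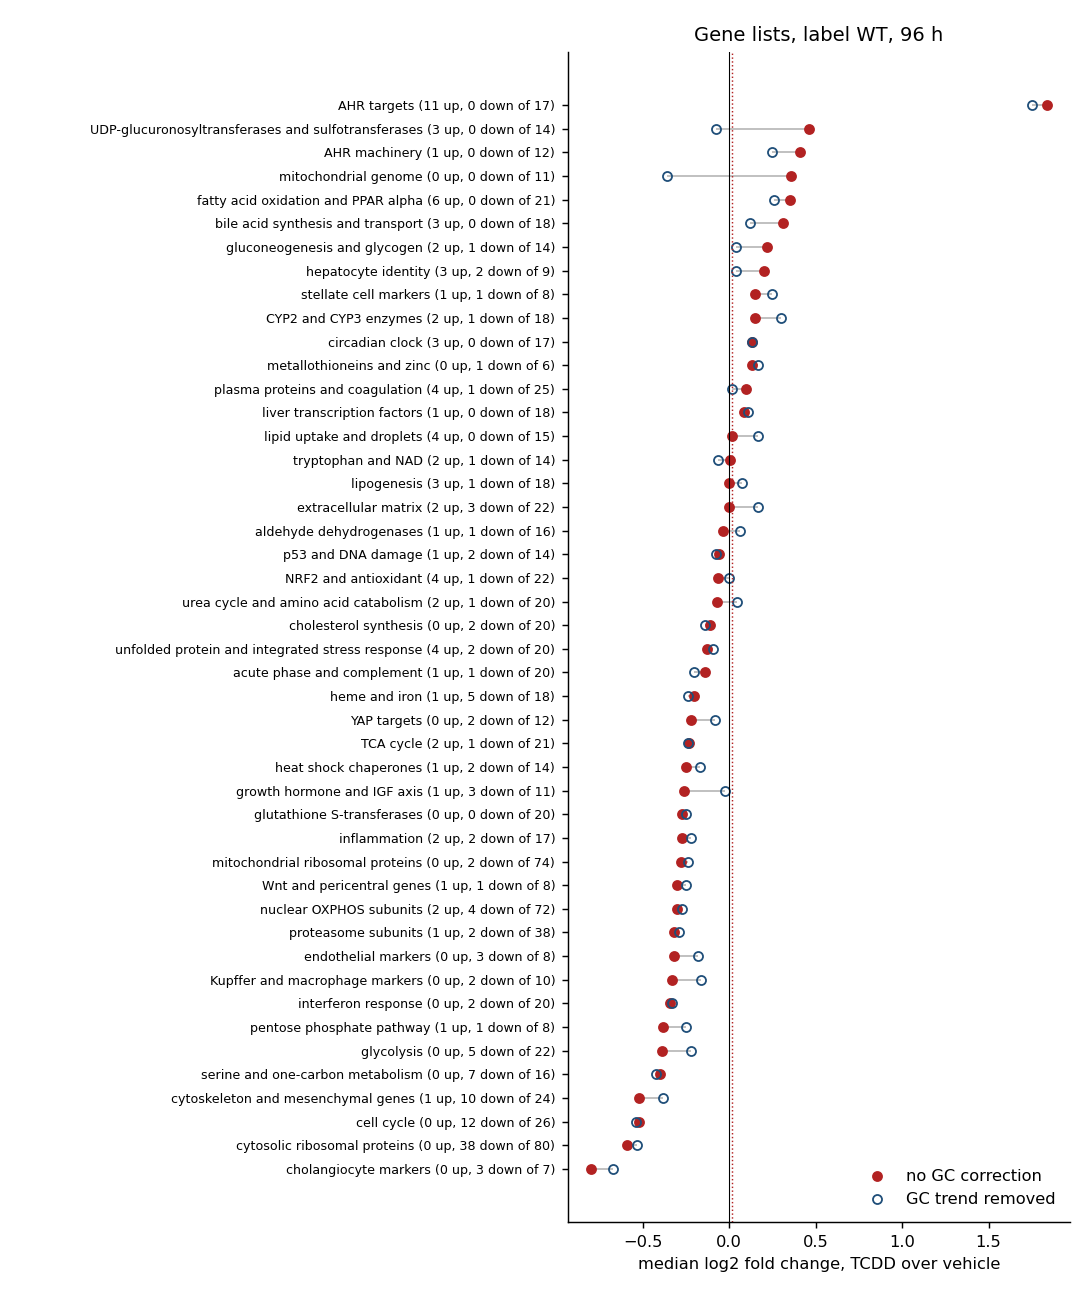
Median log2 fold change (TCDD over vehicle) of the tested members of each gene list, as deposited (red) and with the GC trend removed (open blue), with the number of members that rose and fell as deposited. Of the 47 lists, that of lymphocyte and red cell markers, with 2 tested members, is not drawn. The AHR targets lie at 1.84, apart from every other list, and the dotted line marks the median of all genes at 0.015. The mitochondrial genome and the UGT list are among the lists that change sign between the 2 fits.

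Markers of cell types were read in the same libraries. Defining hepatocyte genes were present, with *Alb* at 5686, 5256, 10171 and 9561 CPM with vehicle and at 11380, 11492, 10368 and 12167 CPM with TCDD. The vehicle values followed the 2 pairs of libraries, and the call of *Alb* (0.63 ± 0.19, adjusted p = 0.0264) was lost without vehicle library 1 (0.52) or 2 (0.50) or TCDD library 1 (0.61), 2 (0.63) or 4 (0.58). *Apob* rose by 0.91 ± 0.13 and the tryptophan dioxygenase *Tdo2* by 1.85 ± 0.21, *Serpina1c* fell by 0.70 ± 0.15 (without the GC trend -0.58, not called), and the tyrosine aminotransferase *Tat* fell by 1.37 ± 0.37 with overlapping groups, a call lost without vehicle library 4 (-1.10) or TCDD library 1 (-1.34), 2 (-1.28) or 3 (-1.28). Of the 9 tested genes of this list 3 rose and 2 fell, and 2 rose and 1 fell without the GC trend. The shares over all genes were 10.1% and 5.00%, and 4.39% and 4.09% without the trend. *Cyp2e1*, a defining enzyme of the liver lobule in vivo, had too few counts to be tested, at 0.262 and 0.291 CPM on average. The summed level of the 10 hepatocyte genes was 6758 to 13226 CPM with vehicle and 12775 to 14844 CPM with TCDD.

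Markers of other liver cells were read too, where 5.00% of all genes fell (4.09% without the GC trend). The Kupffer cell list summed to 92.5 to 140.3 CPM with vehicle and 75.9 to 95.3 CPM with TCDD, and 2 of its 10 genes fell, *Cd5l* (-1.29 ± 0.33) and *Lyz2* (-0.59 ± 0.13), both with and without the GC trend. The endothelial list summed to 125.6 to 157 CPM and 92.8 to 115.3 CPM, and 3 of its 8 measured genes fell, *Lyve1* (-0.90 ± 0.23), *Cdh5* (-0.67 ± 0.15) and *Pecam1* (-0.61 ± 0.16), of which 1 without the GC trend. In the Kupffer list *Lyz2* was not called without vehicle library 1 (-0.57) or 4 (-0.52) or TCDD library 1 (-0.58), 2 (-0.54) or 3 (-0.56), and without TCDD library 1 a single endothelial marker was called. The cholangiocyte list summed to 698 to 1456 CPM and 445 to 878 CPM, and *Krt19*, *Cldn4* (-0.96 ± 0.25) and *Krt7* (-0.80 ± 0.13) of its 7 measured genes fell, *Cldn4* not without the GC trend (-0.71), while *Epcam* stood at 1.66 and 1.43 CPM (-0.16, adjusted p = 0.794). Lymphocyte and red cell markers summed to 2.8 CPM at most, and *Cd3e*, *Ms4a1*, *Nkg7* and *Slc4a1* had 0 counts in all 8 libraries. Of the 2 tested, *Alas2* rose from between 16 and 22 counts to between 27 and 39 counts, where 10.1% of all genes rose. It was also called without the GC trend (4.39% of all genes), but not with the unassigned share as a covariate. In bulk RNA, fewer cells of a type and less RNA per cell cannot be told apart, and the part of these cells in the falls of other lists was not tested.

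The same contrast in other libraries gave fewer calls. With the DRE-null label at 96 h 11 of 13866 genes changed (0.0793%), and all 11 (100%) also rose at 96 h with the WT label, where they made up 0.528% of the 2085 changes. They included *Cyp1b1* (13.78 ± 0.65), *Ahrr* (7.53 ± 0.93), *Selenbp1* (2.15 ± 0.29) and *Nqo1* (1.64 ± 0.22). The count in that label was 4 to 6 with any of 7 libraries left out and 321 without vehicle library 4 of that label. That library had 11.13% of pairs unmapped and 17102 genes detected, against 4.297% to 5.269% and 19482 to 21601 in the other vehicle libraries. The biological coefficient of variation in that label at 96 h was 0.468. Of the changes with the WT label that were tested with the DRE-null label, 1233 of 2058 (59.9%) had the same sign. *Lipc* stood at -1.35 ± 1.45 in that label (adjusted p = 0.799). Between the labels the response differed, by that threshold, for 0 of 14771 genes (0%) by edgeR, with 1930 genes under an unadjusted p of 0.05, 0.839% called by DESeq2 and 6.11% by limma voom, and 438 calls without TCDD library 4 of the DRE-null label.

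With the WT label at 120 h 209 of 14305 genes changed (1.46%), and 149 of them (71.3%, and 7.15% of the changes at 96 h) changed in the same direction at 96 h, of which 46 fell and the others rose, with 0 in the opposite direction. The share of genes called at 120 h was 0.832% without vehicle library 1 of that time, 0.779% without vehicle library 4, 0.491% to 0.532% without TCDD library 1, 2 or 4, and 3.95% without TCDD library 3. *Cyp1a1* (5.33 ± 0.98, adjusted p = 0.0427) and *Cyp1a2* (5.45 ± 0.89, adjusted p = 0.0275) passed there, as did *Cyp1b1* (12.38 ± 0.44), *Ahrr* (7.84 ± 0.48), *Tiparp* (3.89 ± 0.27), *Adh7* (5.67 ± 0.51), *Reln* (4.46 ± 0.47) and *Igf1* (-3.19 ± 0.55). *Lipc* (2.05 ± 0.65, adjusted p = 0.162) and *Ccnd1* (-0.95 ± 0.41, adjusted p = 0.304) did not pass at 120 h. The response at 96 h differed from that at 120 h for 21 of 14974 genes (0.140%), 11 of them more positive at 96 h and 10 more negative. That count was 0 with any of 8 libraries left out, among them TCDD library 2 at 96 h, and 217 without vehicle library 2 at 120 h.

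At 72 h 0 of 13387 genes were called by edgeR (0%), with 276 under an unadjusted p of 0.05 and 15 calls by DESeq2. One library labelled TCDD at 72 h, the last of its group, held 29.2 CPM of *Cyp1a1* where the other 3 held 3386 to 6764 CPM, and without it 11 genes were called. The response at 96 h differed from that at 72 h for 0 of 14549 genes (0%) by edgeR, with 2612 under an unadjusted p of 0.05, 10 calls by DESeq2 and 2263 by limma voom. Of the genes that changed at 96 h and were tested at the other times, 979 of 2010 (48.7%) had the same sign at 72 h and 1454 of 2064 (70.4%) at 120 h. The genes that rose at 96 h had a median log2 fold change of -0.22 at 72 h and 0.12 at 120 h, and those that fell -0.19 and -0.42.

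Over the 9 times the means of the AHR targets with the WT label followed different courses. At 2, 8 and 12 h with TCDD the mean of *Cyp1a1* was 14.8, 2316 and 4213 CPM, and at 96 h it was 4276 ± 238 CPM (SD, n = 4). *Cyp1b1* reached its levels later, with means of 4.31, 88.8 and 242 CPM at 12, 24 and 48 h, 731 CPM at 96 h and 951 CPM at 120 h. *Ahrr* followed a like course at a lower level, with 1.73, 5.83, 16.3 and 19.4 CPM at 12, 24, 96 and 120 h. *Tiparp* was already at 113.6 ± 80.1 CPM at 2 h with TCDD and 45.2 ± 27.4 CPM with vehicle.

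The mean vehicle levels of several genes at 96 h were far from those at 2 h. *Igf1* with vehicle averaged 403 CPM at 2 h and 38.4 CPM at 96 h, and with TCDD 487 and 10.2 CPM. *Lipc* with vehicle went from 256 to 1.45 CPM over the same span and with TCDD from 222 to 17.3 CPM so that both groups stood below their level at 2 h. *Ccnd1* with vehicle went from 8.41 to 90.3 CPM and with TCDD from 8.97 to 32.5 CPM, and *Vim* with vehicle from 54.4 to 1956 CPM and with TCDD to 1037 CPM at 96 h.

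**Figure D5:**
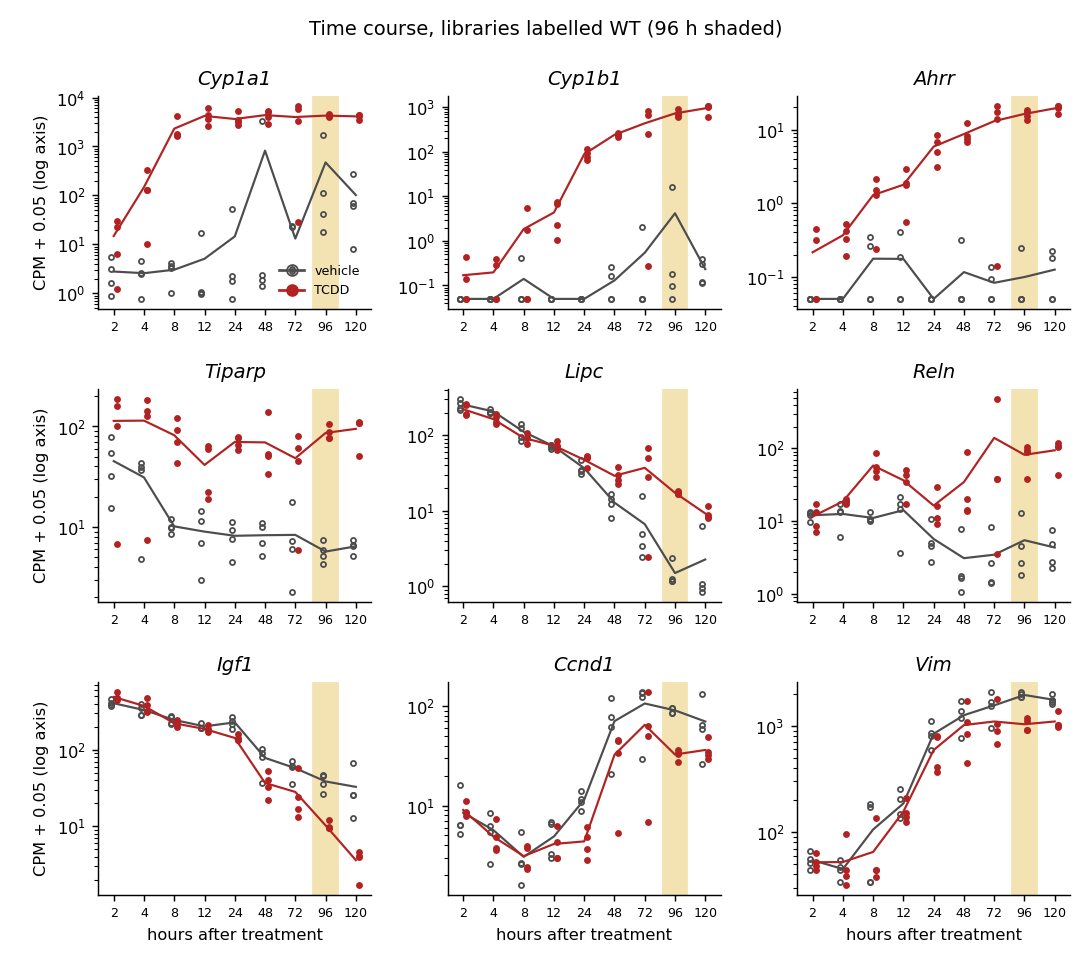
Mean CPM + 0.05 on a log axis at the 9 times after treatment for 9 genes in the libraries labelled WT, vehicle in grey and TCDD in red, with each library as a small point and 96 h shaded. The mean of *Cyp1a1* with TCDD is 3644 to 4372 CPM from 12 h on, *Lipc* and *Igf1* have lower means at 96 h than at 2 h in both groups, and *Ccnd1* and *Vim* are higher at 96 h than at 2 h in both.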

How the data were processed

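RNA-seq libraries of primary mouse hepatocytes were analysed, 8 of the 144 of the series. The authors trimmed paired reads of 150 bases with Trimmomatic 0.39, checked them with FastQC, mapped them to the mouse genome GRCm39 (Ensembl release 104) with STAR and deposited the STAR gene counts per library, of which the unstranded column was used because the reads were not strand-specific. Per the labels the tools also include FastQC 0.11.3, STAR 2.7 and DESeq2. The labels and the methods differ on plate format and seeding density, which no result used. Between 19.8% and 29.0% of read pairs in the 8 libraries fell on no gene (unmapped, multiply mapped, ambiguous or outside genes) and stayed out of library sizes and tests.

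Counts of the 8 libraries were scaled by TMM, filtered with filterByExpr (minimum count 10, total 15) and tested with edgeR 4.0.16 (robust quasi-likelihood, Benjamini-Hochberg over all genes tested), and a gene was called at an adjusted p under 0.05 and a change of at least 1.5-fold. Log2 fold changes are TCDD over vehicle with SE as the absolute log2 fold change over the root of F. CPM used TMM factors over all 144 libraries. Other labels and times were fitted the same way, and differences in response as interaction terms. The GC trend was removed by a lowess fit per library (span 0.3) on GC content. The GC content was that of the longest GENCODE transcript of each gene in GRCm38.p6, known for 99.7% of tested genes. Alternatives were RLE scaling, no fold threshold, no filter, DESeq2 1.42.0, limma 3.58.1 voom with sample weights, 2 covariates, 1 fit of all libraries of a label, each library left out, and, added after the data were seen, vehicle library 3 and TCDD library 1 left out together and the unmapped share as a covariate. No 2 libraries agreed within sampling noise. The test was checked on simulated counts.

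The libraries compared and the 47 gene lists were chosen with earlier results of these data known. Named are the genes the study names and all AHR targets, the 12 called genes with the largest rise and the 12 with the largest fall (no overlap between groups, mean of at least 1 CPM), the 10 with the smallest p, up to 3 members called each way per list, and the called genes of other comparisons. Further members of lists are named from their list and were chosen after their values were seen. Some genes that the rule names are not reported here.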

Additional observations from a re-analysis of the deposited data

Results flagged for a closer look

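In groups of 4 libraries, 1 library stood apart by Dixon's test in 14 cases, over 53 genes and 8 library measures in both groups, where chance flags about 1 in 20. Vehicle library 3 was the high one for *Cyp1a1* (1717 CPM), *Cyp1a2* (1252 CPM), *Cyp1b1* (16.3 CPM), *Ugt1a6b* (18.3 CPM), *Ugt1a9* (12.6 CPM) and *Lipc* (2.34 CPM). Vehicle library 1 was the high one for *Ahrr*, at 0.197 CPM, which was 4 counts beside 0 in the other 3. TCDD library 1 had 63.3% of strand-assigned pairs on 1 strand, was low for *Nqo1* (49.1 CPM), *Ldha* (297 CPM) and *Hamp* (0.488 CPM) and was high for *Igf1* (12.1 CPM). TCDD library 2 had the fewest genes detected in its group, at 20293, and TCDD library 4 the 1 count of *Aldh3a1*, at 0.05 CPM.

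Among the genes named for the difference in response between 96 h and 120 h (log2 at 96 h minus log2 at 120 h, interaction term in edgeR), *Lrrcc1* (2.18 ± 0.40), *Zfp125* (2.11 ± 0.37) and *Zfp760* (2.06 ± 0.38) were more positive at 96 h, and *Arhgef15* (-2.17 ± 0.39), *Eng* (-1.21 ± 0.23) and *Slc39a4* (-1.09 ± 0.20) were more negative, with adjusted p-values of 0.0424 to 0.0455. None of the AHR targets passed this test, which 21 of all 14974 genes (0.140%) passed, so that 0 in a list of this size is near the share over all genes.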

How the results depend on the processing

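Shares are of the genes tested. At 96 h with the WT label the 15.1% called became 32.8% with no fold threshold, 9.74% with the unassigned share of pairs as a covariate, 8.48% with the GC trend removed, 0.776% in 1 fit of all libraries of the label, and 11.8% to 14.8% with 1 library left out. Of the 2085 genes, 462 (269 rises and 193 falls) kept their call and direction under RLE, DESeq2, voom, the covariate, the GC fit and each library left out, and 14 turned sign in the GC fit. With the DRE-null label 0.0793% became 0.109% with no filter, 1.06% by DESeq2, 2.77% by voom, 0.0144% with the covariate, 3.11% in 1 fit, 6.09% with the unmapped share as a covariate and 0.0281% to 2.25% with 1 library left out. At 72 h 0% became 0.112% by DESeq2, 0.217% in 1 fit and 0% to 0.0808% with 1 library left out. At 120 h 1.46% became 1.31% with no filter (386 calls for 209), 4.18% by DESeq2, 7.32% by voom, 3.44% with the covariate, 0.867% in 1 fit and 0.491% to 3.95% with 1 library left out. Between labels 0% became 0.839% by DESeq2, 6.11% by voom, 1.10% in 1 fit and 0% to 2.91% with 1 library left out. Between 96 h and 72 h 0% became 0.0687% by DESeq2, 15.6% by voom and 0% to 0.0134% with 1 library left out. Between 96 h and 120 h 0.140% became 0.267% with no filter, 2.54% by DESeq2, 4.61% by voom, 0.0134% with the GC trend removed, 0.00668% in 1 fit, 0.0134% with the unmapped share and 0% to 1.42% with 1 library left out. The cause of these differences was not tested.

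Among named genes, signs turned for 7 that were not called. *Gsta2* (-0.12) stood at 0.26 with the covariate, 0.17 with the unmapped share, 0.18 without vehicle library 3 and TCDD library 1 and -0.27 to 0.033 with 1 library left out. *Cbr3* stood at 0.16 with the GC trend removed and -0.15 to 0.067 with 1 library left out, *Cyp2s1* at -0.083 with the covariate and -0.65 to 0.52 with 1 library left out, *Gsta1* at 0.032 with the covariate, *Gstp1* at 0.027 and *mt-Nd4* at -0.46 with the GC trend removed, and *Ptprc* at -0.053 with the GC trend removed and -0.19 without vehicle library 3 and TCDD library 1. No paired analysis was possible because the labels give no replicate numbers that tie a TCDD library to a vehicle library.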
